A study of Mus musculus with 8 samples.

Results

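Acod1, Saa3 and Slpi are 3 of the 21755 genes named in any of the 8 count tables, and they were selected on their higher UMI counts in macrophages of the diabetic libraries in these same data. Their diabetic and control values in macrophage-like cells are therefore given as a description, with no test, as are the distances of macrophage-like cells from other classes. The cells were leukocytes sorted with an antibody to CD45 from skin wounds of C57BL/6J mice on days 1, 3, 5 and 7. In the diabetic group, mice received streptozotocin (STZ), a toxin of the insulin-producing beta cells, at 120 mg/kg at the age of 4 weeks after 12 h of fasting, and were used when blood glucose reached 16.5 mmol/L or more after 7 days. The control group was wounded without STZ, and the age of its mice is not given in the sources used here. The comparison asks how the immune cells of diabetic and healthy wounds differ as the wounds close. Each of the 8 libraries pooled 5 mice, so that each condition was 1 library and no comparison on a single day had a replicate. Both groups were wild type, and the diabetes was the consequence of a chemical lesion, not of obesity or of a transgene.

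The products of the 3 genes belong to different arms of the inflammatory response. Acod1 (also called Irg1) encodes aconitate decarboxylase, a mitochondrial enzyme that takes cis-aconitate out of the tricarboxylic acid (TCA) cycle and makes itaconate in activated myeloid cells. Itaconate inhibits succinate dehydrogenase and modifies Keap1, which frees the antioxidant transcription factor Nrf2. Saa3 encodes a serum amyloid A protein made outside the liver, an acute-phase product of macrophages, fibroblasts and fat cells exposed to bacterial products or interleukin-1. Slpi encodes the secretory leukocyte protease inhibitor, which blocks neutrophil elastase and cathepsin G and is known in skin for its role in wound closure. Toll-like receptors and NF-kappaB induce all of them.

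In GENCODE M21 (GRCm38), each gene was protein coding. Acod1 lay on the plus strand at chr14:103046977-103056573, with 5 exons in its first transcript. Saa3 lay on the minus strand at chr7:46711998-46715700, with 4 exons. Slpi lay on the minus strand at chr2:164354070-164389095, also with 4 exons in its first transcript. The UMIs (unique molecular identifiers, 1 per captured RNA molecule) were counted per gene, so that exons and isoforms cannot be told apart in the tables. Levels are given as CPM, the UMIs of a gene in every 1000000 UMIs of a cell class in a library.

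The promoters are shown because levels of Acod1 and Slpi moved together over cell classes and libraries, whereas Saa3 followed another pattern. They are the RefSeq sequences (GRCm38.p6) from 250 bases before to 50 bases after each gene's start, read on the gene's strand, with the start that RefSeq gives, at chr14:103046762-103047061 for Acod1, chr7:46715627-46715926 for Saa3 and chr2:164356458-164356757 for Slpi. The RefSeq starts lie 35 and 24 bases inside the GENCODE gene for Acod1 and Saa3. That of Slpi is the start of its first GENCODE transcript, while the gene's outer end is reached by 1 of 3 transcripts only, which begins 32588 bases upstream. Capitals mark matches, on either strand, to an NF-kappaB motif (GGGNNNNNCC), a C/EBP motif (TTNNGNAA), an AP-1 motif (TGANTCA) and TATA boxes (TATAAA or TATATA), where N is any base.
Acod1: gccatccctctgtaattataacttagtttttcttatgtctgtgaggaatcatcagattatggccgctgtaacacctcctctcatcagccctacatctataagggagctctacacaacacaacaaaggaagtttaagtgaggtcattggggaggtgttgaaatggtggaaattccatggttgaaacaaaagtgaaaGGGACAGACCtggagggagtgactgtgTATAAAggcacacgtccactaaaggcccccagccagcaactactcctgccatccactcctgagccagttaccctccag
Saa3: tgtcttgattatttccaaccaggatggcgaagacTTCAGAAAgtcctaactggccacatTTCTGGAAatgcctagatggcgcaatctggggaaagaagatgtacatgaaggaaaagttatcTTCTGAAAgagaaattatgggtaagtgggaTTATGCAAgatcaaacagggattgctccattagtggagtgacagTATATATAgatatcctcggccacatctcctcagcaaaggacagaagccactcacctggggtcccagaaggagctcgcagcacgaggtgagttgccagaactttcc
Slpi: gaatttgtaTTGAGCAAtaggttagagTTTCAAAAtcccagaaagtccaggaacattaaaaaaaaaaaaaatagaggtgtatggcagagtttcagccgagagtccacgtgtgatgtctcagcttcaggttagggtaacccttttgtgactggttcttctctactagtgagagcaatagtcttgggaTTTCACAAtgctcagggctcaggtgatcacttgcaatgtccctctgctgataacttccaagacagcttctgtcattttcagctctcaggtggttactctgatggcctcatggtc
The Acod1 promoter held 1 NF-kappaB match, beginning at position -55 from the start, and TATAAA at position -28. The Saa3 promoter held 4 C/EBP matches, beginning at positions -216, -191, -129 and -99, and overlapping TATATA matches from position -55. The Slpi promoter held 3 C/EBP matches, beginning at positions -241, -223 and -64, and no TATA match. No AP-1 match was in these windows. Such matches are common: of 32851 mouse promoters of this length, 50.8% held the NF-kappaB letters, 40.7% the C/EBP letters, 7.81% the AP-1 letters, 13.6% TATAAA and 5.67% TATATA.

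The tables held 38959 barcodes, of which 35158 passed the filter on genes and mitochondrial RNA. Libraries held 19236522 to 33842509 UMIs, and the median cell had 2575 to 8234. The control library of day 5 stood apart, with 28.6% of its barcodes removed against 1.00% to 10.8% in the others, and with 8.11% neutrophil-like cells against 20.7% to 60.0%. Ptprc, which encodes CD45, was at 532 to 922 CPM in the 8 libraries, and 70.8% to 86.1% of cells had at least 1 Ptprc UMI. Cells were renumbered in each table, so that barcodes shared between libraries could not be counted. Clusters were named from marker genes, and the 3 genes were kept out of the variable genes that formed them. The classes differed in RNA per cell, with medians per library of 2161 to 2890.5 UMIs in neutrophil-like, 3465 to 4408 in T cell-like, 5772.5 to 9503 in monocyte-like, 6698 to 9276 in dendritic-like and 3446 to 11173 in macrophage-like cells. Levels are given as CPM, and distances between classes also in UMIs per cell, a scale added after the data had been seen.

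Acod1 was foremost a neutrophil transcript. In neutrophil-like cells it stood at 8872, 5951, 5561 and 3445 CPM in the diabetic libraries of days 1, 3, 5 and 7, and at 9766, 4059, 2299.6 and 2034 in the control libraries. The level was highest on day 1 in both groups, and the day 7 libraries were the lowest of each. In monocyte-like cells it was at 1387.5, 1167, 529.6 and 893 in the diabetic libraries and at 964, 249, 328 and 564 in the control libraries. Neutrophil-like cells exceeded monocyte-like cells in 8 of 8 libraries, by 2.80 ± 0.76 on the log2 scale (mean ± SD over libraries; two-sided exact sign-flip permutation test, adjusted p = 0.0102 over the 30 tests of 3 genes in 10 pairs of classes). With 8 libraries, the smallest unadjusted p this test can give is 0.0078. The distance in UMIs per cell was 1.51 ± 0.62, with the same sign in 8 of 8 libraries (exact permutation test, adjusted p = 0.0117). Each library's neutrophil-like cells held 55.8% to 87.7% of its Acod1 UMIs, while making up 8.11% to 60.0% of its cells.

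Slpi had nearly the same order of classes in CPM. In neutrophil-like cells it was at 7484.5, 4578, 7998 and 3242 CPM in the diabetic libraries and at 9098, 4031, 2299 and 2008 in the control libraries. Only the diabetic library of day 5 broke the decline from day 1 that the control libraries showed. In monocyte-like cells Slpi was at 3883, 1696, 1315 and 1799 in the diabetic libraries and at 2798, 713, 568 and 742 in the control libraries. Each diabetic library was above its control of the same day. The distance between neutrophil- and monocyte-like cells was 1.69 ± 0.65 on the log2 scale, against 2.80 for Acod1 (the difference of these was not tested), and had the same sign in 8 of 8 libraries (exact permutation test, adjusted p = 0.0102). Counted in UMIs per cell it was 0.40 ± 0.53 and did not pass (exact permutation test, adjusted p = 0.084), with monocyte-like cells above neutrophil-like cells on diabetic days 1, 3 and 7.

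For Saa3 no class led throughout. It stood at 233, 485, 365 and 207 CPM in neutrophil-like cells of the diabetic libraries and at 227, 118, 53.7 and 89.5 in those of the control libraries. In monocyte-like cells the values were 842, 649, 52.4 and 141 in the diabetic libraries, and 548, 105, 40.7 and 83.4 in the control libraries. In macrophage-like cells they were 1071, 585, 188 and 95.6 in the diabetic libraries, and 167, 56.1, 62.6 and 109 in the control libraries. The order of these 3 classes changed from library to library, and each mean distance was smaller than the spread between libraries. The means on the log2 scale were 0.060 ± 1.39 for neutrophil- over monocyte-like (exact permutation test, adjusted p = 0.95), 0.076 ± 1.10 for neutrophil- over macrophage-like and 0.017 ± 1.08 for monocyte- over macrophage-like cells. Monocyte-like cells held 77.9% of the Saa3 UMIs of the diabetic day 1 library and 73.2% of those of the control day 1 library, whereas macrophage-like cells held 78.7% on control day 5 and 70.1% on control day 7. Neutrophil-like cells held 72.4% on diabetic day 5 and had the highest CPM of the 3 classes on diabetic days 5 and 7 and on control day 3. In UMIs per cell they were below monocyte-like cells in 7 of 8 libraries, by a mean of -1.23 ± 1.33 on the log2 scale (exact permutation test, adjusted p = 0.043), and below macrophage-like cells in 7 of 8, by -1.13 ± 0.93.

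**Figure D1:**
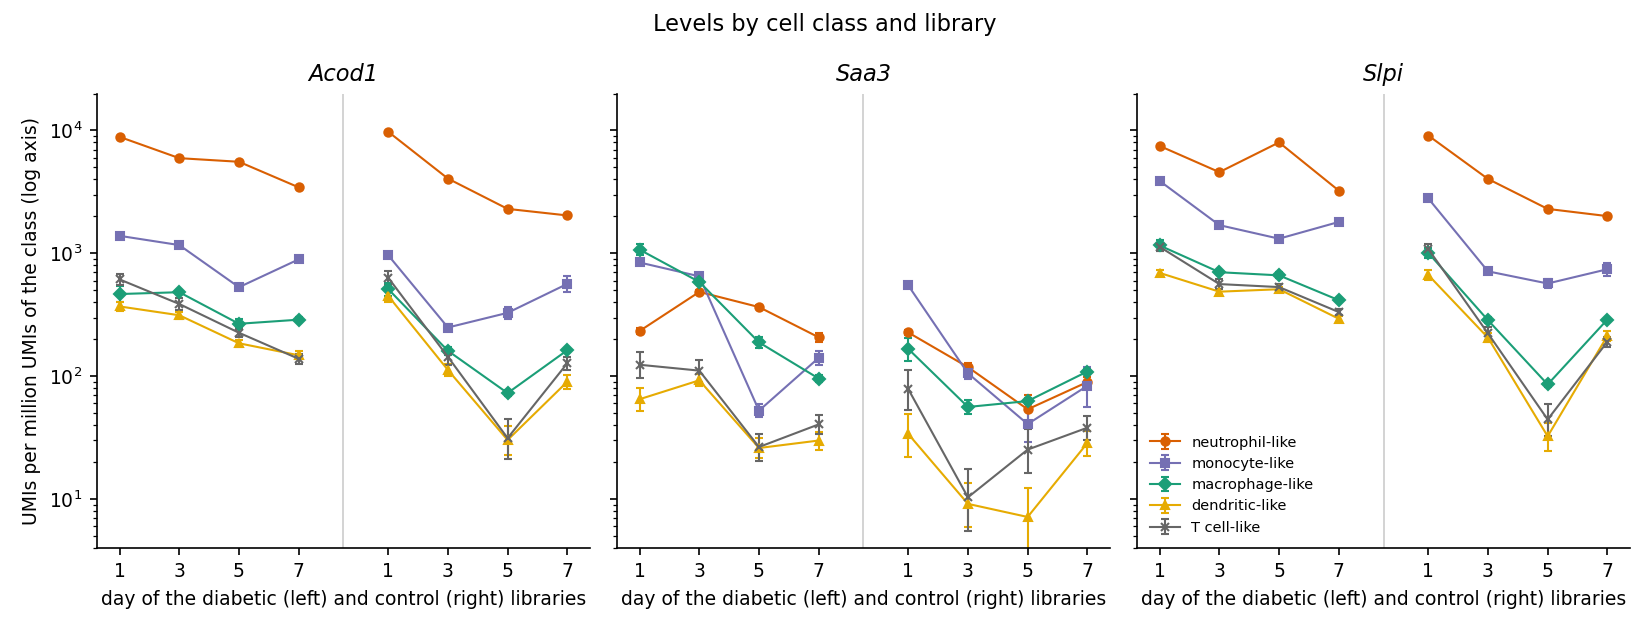
CPM in each cell class (y axis, log scale) for Acod1, Saa3 and Slpi in the 4 diabetic libraries (left of each panel) and the 4 control libraries (right) of days 1, 3, 5 and 7; points are libraries and bars are 95% Poisson intervals for counting error. In CPM, neutrophil-like cells lead for Acod1 and Slpi in each library, and neutrophil-, monocyte- and macrophage-like cells change places for Saa3.

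T cells are not known as a source of these transcripts, so that UMIs in T cell-like cells served as a gauge of free RNA, that is, RNA released from other cells and captured with them. The gauge was well above 0. Acod1 was at 613, 387, 225 and 138 CPM in T cell-like cells of the diabetic libraries and at 633, 144, 31.3 and 127 in those of the control libraries. Slpi was at 1129, 562, 531 and 333, and at 1084, 223, 44.4 and 190.5. Saa3 was at 124, 111, 26.5 and 40.5, and at 78.5, 10.3, 25.2 and 38.0. For Acod1 and Slpi the gauge was highest on day 1 in both groups and lowest in the control library of day 5, and for Saa3 it was lowest in the control library of day 3. Most cells of the gauge came from the cluster led by Trdc, a gamma-delta T cell receptor gene, on diabetic days 1, 3 and 5 and on control day 7, and from that led by Ctla4 in the other libraries. Single T cell-like cells held up to 55 UMIs of Acod1, 22 of Saa3 and 132 of Slpi. On control day 5 a single cell held 17 Saa3 UMIs, where the clusters led by Trdc and Ctla4 had 18 and 7. The Saa3 gauge of that library, and its place above control day 3, thus rest mostly on this cell. NK cell-like cells were set against the gauge in the 6 libraries with at least 20 of them. They stood at 0.64 to 1.38 times its level for Acod1, 0.55 to 1.46 for Saa3 and 0.76 to 0.91 for Slpi.

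Acod1 in macrophage-like cells was close to the gauge in CPM. It stood at 466, 482, 267 and 288 CPM in the diabetic libraries and at 512, 161, 72.7 and 163 in the control libraries, which was 0.76 to 2.33 times the T cell-like level of the same library. It was above the gauge in 6 of 8 libraries, by a mean of 0.33 ± 0.57 on the log2 scale. On day 1 the macrophage-like cells were below the T cell-like cells in both groups. In UMIs per cell Acod1 was at 1.92, 3.73, 2.34 and 2.25 in the diabetic libraries and at 2.62, 1.31, 0.82 and 1.37 in the control libraries. The T cell-like values were 2.95, 1.85, 1.10 and 0.67, and 2.43, 0.73, 0.19 and 0.59. On this scale macrophage-like cells were above the gauge in 7 of 8 libraries, at 0.65 to 4.32 times its level, with a mean log2 distance of 0.94 ± 0.87. The mean in CPM moved with how cells were named. It was 0.48 at clustering resolution 0.4, in place of 0.8, 0.44 at resolution 1.6 and 0.51 without the 5% of cells most like doublets. When each cell was named singly from its own markers, the mean was -0.49, with macrophage-like cells below the gauge. Without the control library of day 5 it was 0.20. The largest ratios were 2.33 in the control library of day 5 (exact 95% interval 1.63 to 3.44) and 2.08 in the diabetic library of day 7 (1.88 to 2.31).

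Slpi in macrophage-like cells was likewise near the gauge in CPM, at 1158, 702, 661 and 415 CPM in the diabetic libraries and at 1008, 285, 85.6 and 289 in the control libraries. It exceeded T cell-like cells in 7 of 8 libraries, by 0.35 ± 0.32 on the log2 scale. The ratio ran from 0.93 to 1.93. The mean was 0.26 to 0.41 with a library left out, lowest without the control library of day 5. With cells named singly the mean was -0.082. In UMIs per cell Slpi was at 4.78, 5.43, 5.80 and 3.25 in the diabetic and at 5.165, 2.32, 0.97 and 2.44 in the control libraries, against 5.42, 2.68, 2.58 and 1.599, and 4.16, 1.13, 0.27 and 0.89 in T cell-like cells. That was 0.88 to 3.58 times the gauge, and above it in 7 of 8 libraries. Diabetic day 1 was the library below the gauge for both genes.

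Saa3 in macrophage-like cells was above the gauge in each of the 8 libraries, by 2.12 to 8.65 times. The mean distance was 1.99 ± 0.79 on the log2 scale. Per cell the ratio was 2.84 to 12.8. Monocyte-like cells were above the gauge in 8 of 8 libraries for each of the 3 genes, by 1.70 ± 0.97 for Acod1, 2.01 ± 0.99 for Saa3 and 1.98 ± 0.77 for Slpi (adjusted p = 0.0102 for each in the exact permutation test). In CPM, dendritic-like cells were below it, by a mean of -0.33 ± 0.26 for Acod1 (adjusted p = 0.028), -0.66 ± 0.61 for Saa3 (adjusted p = 0.0102) and -0.28 ± 0.31 for Slpi (adjusted p = 0.036) in the same exact test. With a library left out, the dendritic-like mean stayed at -0.39 to -0.27 for Acod1 and at -0.35 to -0.22 for Slpi, while the call was kept only without diabetic day 7 or control day 5 for Acod1 and only without control day 7 for Slpi. The direction turned in UMIs per cell. Dendritic-like cells were then above the gauge in 7 of 8 libraries for Acod1 and for Slpi, by 0.31 ± 0.33 and 0.35 ± 0.35, while Saa3 was at -0.025 ± 0.60 (exact permutation test, adjusted p = 0.043, 0.038 and 0.92). In all, 17 of the 18 tests between classes other than the macrophage-like one passed in CPM and 16 in UMIs per cell, and 3 of the 18 means had the other sign.

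**Figure D2:**
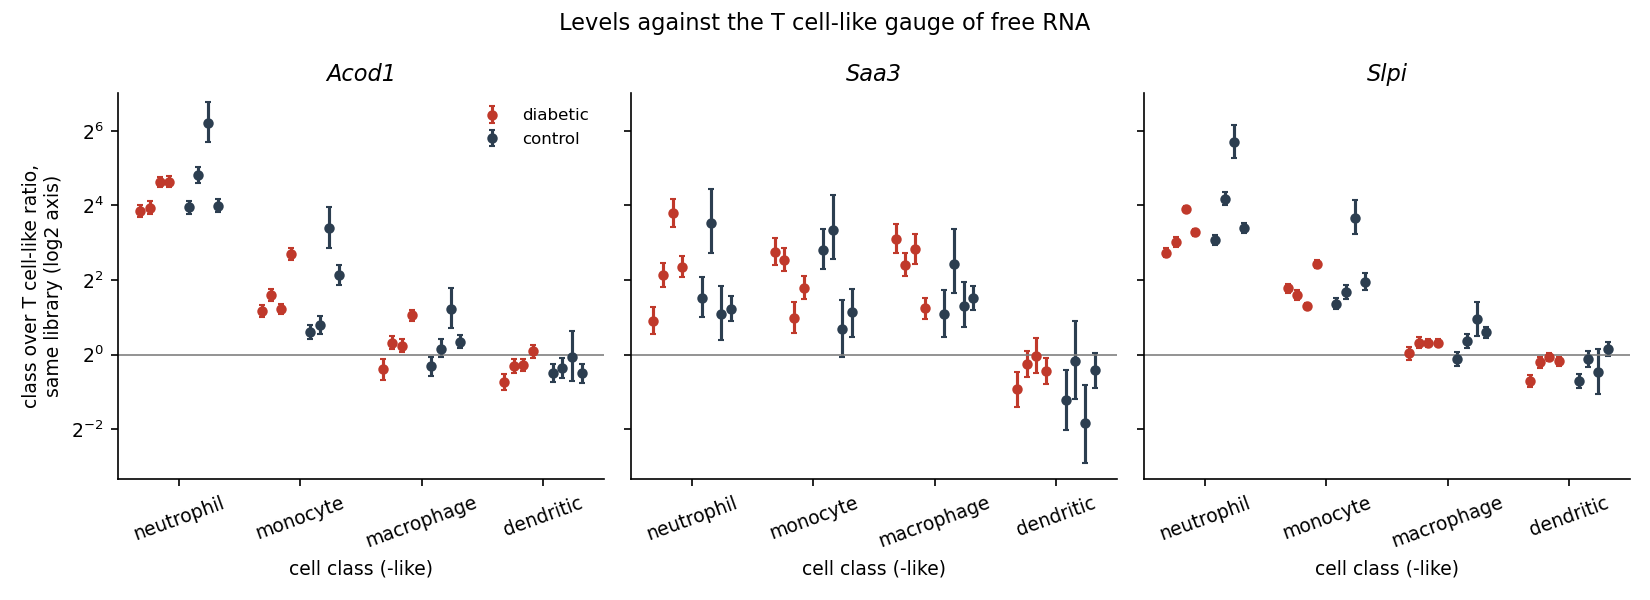
Level in each class divided by the level in T cell-like cells of the same library (y axis, log2 scale) for the 3 genes; each point is 1 of the 8 libraries in day order, red for diabetic and dark for control, and bars are exact 95% intervals of the ratio of counts. The line at 1 is the gauge: macrophage-like points lie from 0.76 to 2.33 for Acod1 and from 2.12 to 8.65 for Saa3.

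Neutrophil markers were found in each of the 5 classes compared, the neutrophil-, monocyte-, macrophage-, dendritic- and T cell-like cells. The summed level of 8 neutrophil marker genes (S100a8, S100a9, Csf3r, Cxcr2, Retnlg, Il1r2, Lrg1 and G0s2) was 15474 to 61678 CPM in neutrophil-like cells. It was 1143 to 3875 in macrophage-like cells of the diabetic libraries and 293 to 2935 in those of the control libraries. The sums in T cell-like cells were 1201 to 3426 and 564 to 3486. None of the 8 markers was at 0 in macrophage-like cells of any library, and 1 was at 0 in T cell-like cells of the control library of day 5. Per S100a8 UMI, neutrophil-like cells held 0.34 to 0.59 Acod1 UMIs and T cell-like cells 0.25 to 0.46. Macrophage-like cells held 0.28 to 0.92, and monocyte-like cells 0.50 to 2.70. For Saa3 the ratio was 0.0098 to 0.043 in neutrophil-like cells, 0.10 to 0.80 in macrophage-like cells and 0.018 to 0.22 in T cell-like cells, which overlaps the macrophage-like range. The T cell-like 0.22 was that of control day 5, with its cell of 17 Saa3 UMIs, and diabetic day 3 had 0.12. The part of free neutrophil RNA in the macrophage-like values was not tested.

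The diabetic macrophage-like cells, by which the genes were chosen, had more Saa3 than the control cells on days 1, 3 and 5. The ratio of diabetic to control was 6.42 on day 1 (exact 95% interval 5.09 to 8.19), 10.4 on day 3 (9.15 to 11.9) and 3.01 on day 5 (2.65 to 3.41). On day 7 it was 0.88 (0.80 to 0.95). The T cell-like ratio for Saa3 was 1.58 (1.01 to 2.50), 10.7 (5.98 to 20.97), 1.05 (0.65 to 1.74) and 1.06 (0.80 to 1.42) on the 4 days. The control gauge of day 5 rests mostly on a single cell with 17 Saa3 UMIs, and no ratio was computed without it. Each ratio compares 1 library with 1 other, and the intervals cover counting error only, so that these values are set side by side with no call. The day 1 and day 5 ratios moved with the clustering. At resolution 1.6 Saa3 was at 604 CPM in diabetic and 409.9 CPM in control macrophage-like cells of day 1, a log2 ratio of 0.56 in place of 2.68. With the 3 genes among the variable genes the values were 641 and 333 CPM, a log2 ratio of 0.95. At resolution 0.4 the day 5 values were 100.2 and 109 CPM, a log2 ratio of -0.12 in place of 1.59. On day 3 the log2 ratio stayed between 3.01 and 4.53 in each of the 9 alternatives, and on day 7 it was below 0 in each. After the T cell-like level was subtracted, Saa3 was at 947, 474 and 162 CPM in diabetic macrophage-like cells of days 1, 3 and 5. The control values were 88.3, 45.8 and 37.4, the last after subtraction of the gauge that holds the cell with 17 UMIs.

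For Acod1 the macrophage-like ratio was 0.91 (0.75 to 1.11), 3.0 (2.76 to 3.26), 3.67 (3.29 to 4.09) and 1.77 (1.68 to 1.87) on days 1, 3, 5 and 7. Among T cell-like cells it was 0.97 (0.82 to 1.15), 2.69 (2.24 to 3.25), 7.21 (5.02 to 10.7) and 1.09 (0.93 to 1.27). After subtraction, Acod1 was at 95.6 and 149.8 CPM in diabetic macrophage-like cells of days 3 and 7, against 17.3 and 35.3 in control cells. On day 5 the remainders were 41.3 and 41.5, and on day 1 both groups were at the floor of 3 counts. When the T cell-like value was subtracted in UMIs per cell, the day 5 remainders were 1.24 and 0.63, and those of days 3 and 7 were 1.88 and 1.59 against 0.58 and 0.78.

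For Slpi the macrophage-like ratio was 1.15 (1.01 to 1.31), 2.46 (2.31 to 2.62), 7.73 (7.14 to 8.36) and 1.44 (1.38 to 1.502). The T cell-like ratio was 1.04 (0.92 to 1.18), 2.52 (2.17 to 2.93), 12.0 (8.85 to 16.5) and 1.75 (1.56 to 1.96). With the gauge subtracted, Slpi stood at 29.3, 140 and 130 CPM in diabetic macrophage-like cells of days 1, 3 and 5, against 5.68, 62.5 and 41.2 in control cells, where the first control value is the floor. On day 7 it was at 82.9 against 98.5. The remainders in UMIs per cell on days 3, 5 and 7 were 2.745, 3.22 and 1.65 in diabetic and 1.19, 0.696 and 1.55 in control cells, and on day 1 the diabetic value was at the floor and the control value at 1.01. Over the 4 days the mean log2 ratio without subtraction was 1.04 ± 0.90 for Acod1, 1.87 ± 1.56 for Saa3 and 1.24 ± 1.23 for Slpi (SD over days). Without day 5 the means were 0.76, 1.96 and 0.67. Apart from the subtraction, the day 1 log2 ratio ran over the alternatives from -0.45 to 0.077 for Acod1 and from -0.17 to 0.36 for Slpi. None of the 3 genes was at least 2-fold higher in diabetic macrophage-like cells on each of the 4 days, as were 2 of 10805 genes with a mean of at least 10 UMIs (0.0185%), namely Lcn2 and 2010005H15Rik, with control counts under the floor set to it.

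**Figure D3:**
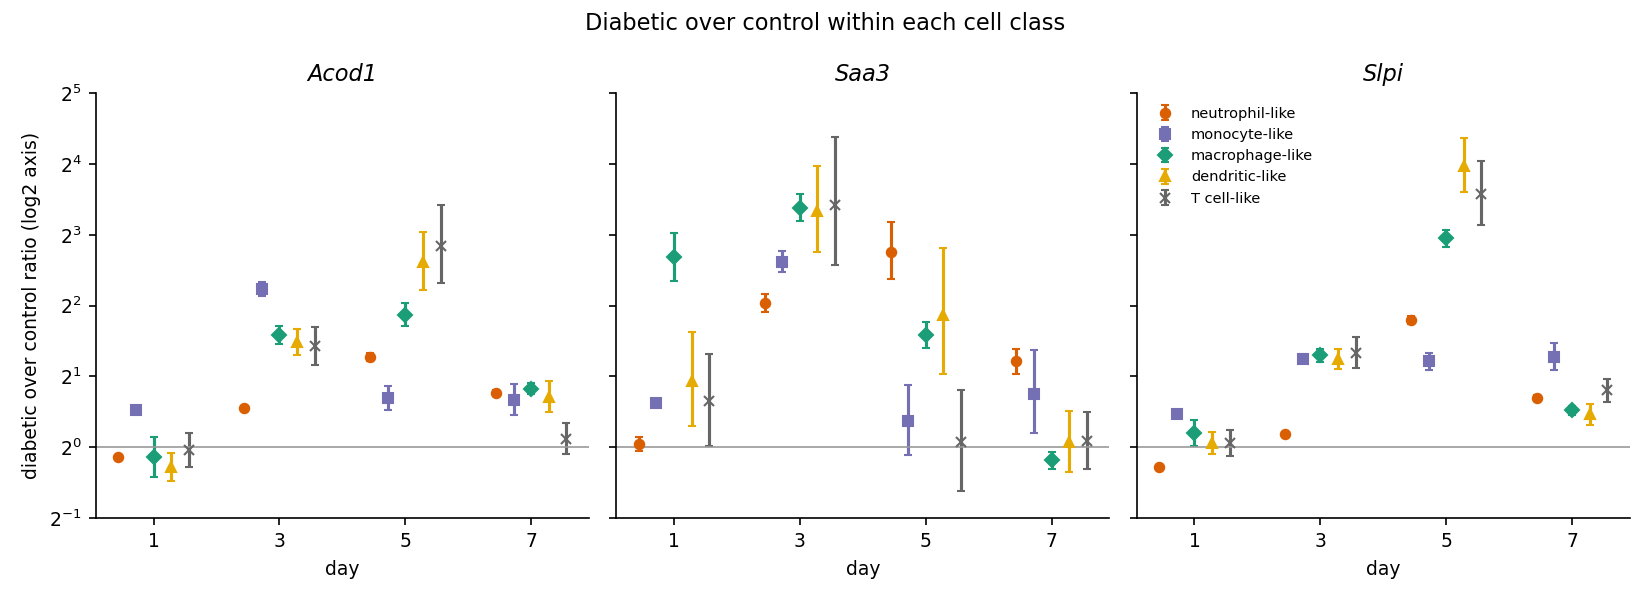
Ratio of the diabetic to the control library (y axis, log2 scale) on days 1, 3, 5 and 7 in 5 cell classes; bars are exact 95% intervals for counting error, and no point has a replicate. On day 5 the ratio of Slpi is 12.0 in T cell-like and 7.73 in macrophage-like cells, while on day 1 the ratio of Saa3 is 6.42 in macrophage-like and 1.58 in T cell-like cells.

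Within the macrophage-like class, Saa3 was highest on diabetic days 1 and 3 in the cluster led by Ccl8, whose other leading genes were Retnla, Lyve1 and Cd163, known from resident tissue macrophages. Saa3 stood there at 1723, 1314, 182 and 134 CPM in the diabetic libraries and at 84.4, 23.4, 211 and 76.6 in the control libraries. The diabetic value was above the control value on days 1, 3 and 7 but not on day 5. The ratio was 20.4 on day 1 (exact 95% interval 11.2 to 41.4), from 32 diabetic and 29 control cells, and 56.1 on day 3 (32.7 to 106), from 214 and 97 cells. In the cluster led by Ms4a7 and Gpnmb, Saa3 was at 611, 429, 197 and 145 in the diabetic libraries and at 198, 60.9, 34.1 and 196 in the control libraries. In the cluster led by Igf1, which had under 20 cells on day 1, it was at 123, 106 and 84.2 on diabetic days 3, 5 and 7 and at 61.4, 17.4 and 111 on the control days. The cluster led by Ms4a7 was the largest of both groups on days 1, 3 and 5, at 48.3% to 67.7% of macrophage-like cells, and that led by Igf1 on day 7, at 81.1% and 86.4%. Pairing clusters with days, the diabetic value was above the control value in 8 of 11 cases for Saa3 and in 10 of 11 for both Acod1 and Slpi.

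**Figure D4:**
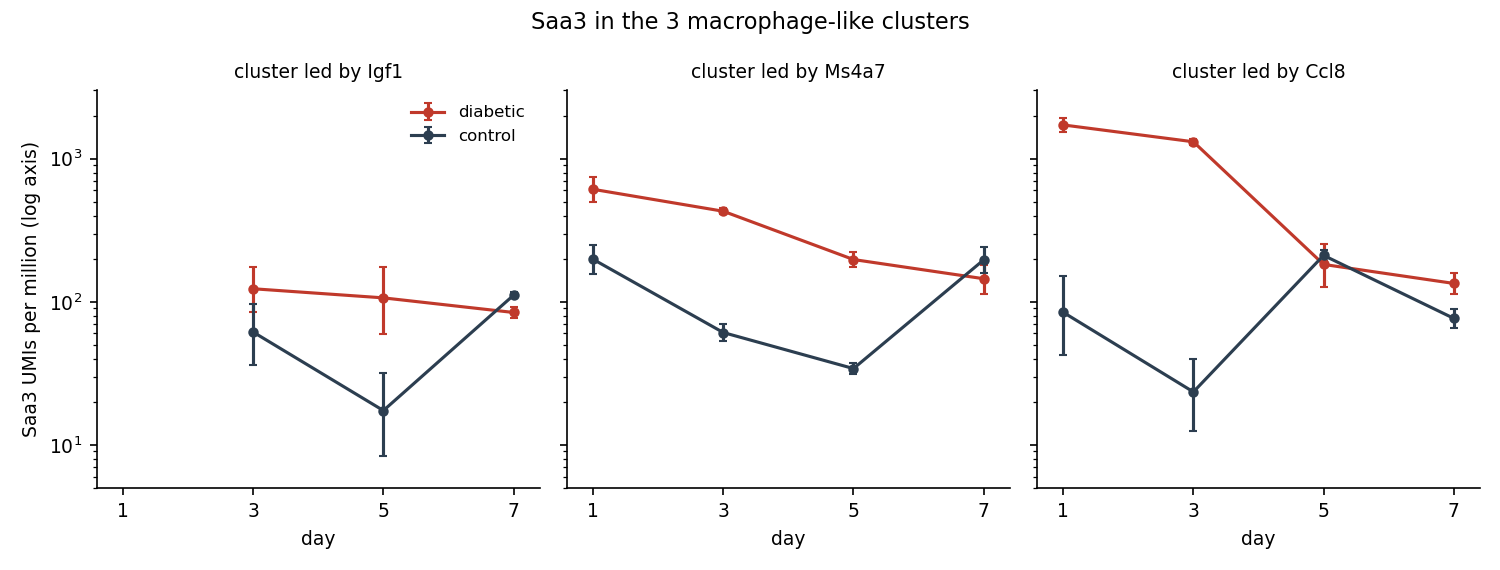
Saa3 CPM (y axis, log scale) by day in the 3 macrophage-like clusters, for libraries with at least 20 cells of the cluster; red is diabetic, dark is control, and bars are 95% Poisson intervals. The cluster led by Ccl8 reaches 1723 on diabetic day 1 and 1314 on diabetic day 3, against 84.4 and 23.4 in the control libraries.

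Saa3 was also the most unevenly spread of the 3 genes. The 5% of macrophage-like cells with the most Saa3 held 45.8% to 88.8% of its UMIs in each library, and a single cell held up to 629. For Acod1 and Slpi the corresponding shares were 17.5% to 52.2% and 20.3% to 51.5%, with at most 44 and 105 UMIs in a cell. In neutrophil-like cells the top 5% held 73.1% to 100% of the Saa3 UMIs but only 14.2% to 18.5% of the Acod1 UMIs. A gene present in few cells gives such high shares at low counts as well, and the highest number of Saa3 UMIs in a T cell-like cell was 22. The macrophage-like cell with 629 Saa3 UMIs came from diabetic day 3, while the highest on control day 7 held 156. In the diabetic day 3 library the clusters led by Ms4a7 and Ccl8 held 1848 and 1424 Saa3 UMIs. Which of them held this cell is not given. The day 3 ratios of Saa3, in the class and in these clusters, are not given without this cell.

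**Figure D5:**
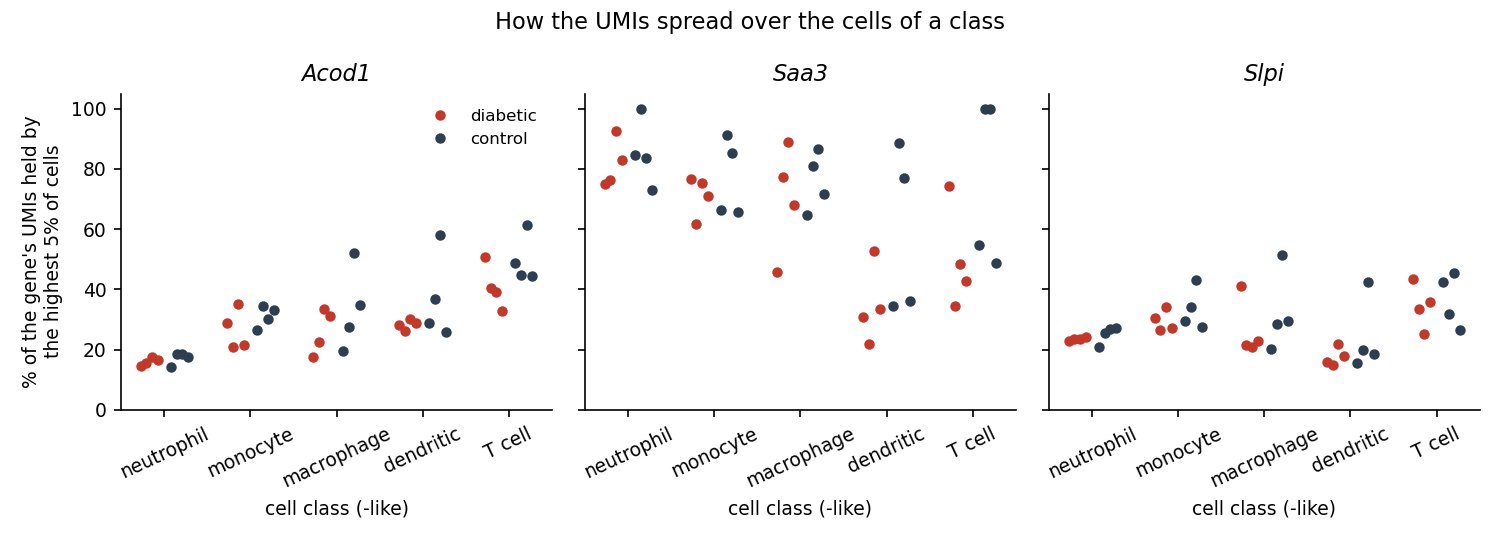
Share of a gene's UMIs held by the highest 5% of cells of each class (y axis, %), 1 point per library, red for diabetic and dark for control. Saa3 lies at 45.8% to 88.8% in macrophage-like cells, Acod1 at 17.5% to 52.2% and Slpi at 20.3% to 51.5%.

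Shares of cells were compared after thinning each cell to 1000 UMIs, which left out 1 to 345 cells of a class in a library, apart from the monocyte-like cells of control day 7, of which none was left out. Acod1 was found in 97.8%, 93.5%, 92.2% and 86.7% of neutrophil-like cells of the diabetic libraries and in 98.1%, 84.6%, 78.7% and 78.3% of those of the control libraries. In macrophage-like cells the shares were 38.9%, 38.1%, 23.8% and 23.6%, and 42.9%, 16.9%, 5.89% and 13.7%. Among T cell-like cells, with medians of 3465 to 4408 UMIs before thinning against 3446 to 11173 in macrophage-like cells, they were 30.2%, 25.6%, 17.2% and 12.9%, and 34.7%, 8.47%, 1.36% and 10.6%. Saa3 was found in 27.8%, 19.0%, 4.32% and 6.67% of macrophage-like cells of the diabetic libraries, against 6.60%, 10.4%, 2.94% and 4.13% of T cell-like cells. In the control libraries the macrophage-like shares were 9.09%, 2.99%, 2.63% and 5.80%, and the T cell-like shares 7.92%, 1.69%, 1.36% and 3.93%. Without thinning, Saa3 was found in 37.1%, 59.2%, 22.6% and 26.1% of diabetic and in 34.0%, 13.6%, 14.4% and 28.2% of control macrophage-like cells.

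The 3 genes were next compared between diabetic and control libraries in the classes that had not served to choose them, with edgeR on summed UMIs, the day as a block and adjustment over all genes tested. In neutrophil-like cells none of the 9589 genes passed in either direction (0% called), and 1245 had an unadjusted p under 0.05. Saa3 was higher in the diabetic library on each of 4 days, with ratios of 1.03, 4.10, 6.80 and 2.31 and a log2 difference of 1.65 ± 0.44 (SE; edgeR adjusted p = 0.24). Acod1 had ratios of 0.91, 1.47, 2.42 and 1.69 and a log2 difference of 0.78 ± 0.39 (edgeR adjusted p = 0.42). The ratios of Slpi were 0.82, 1.14, 3.48 and 1.61, with a log2 difference of 0.74 ± 0.45 (edgeR adjusted p = 0.50). On days 3, 5 and 7 the diabetic value was the higher for each gene, and on day 1 it was the lower for Acod1 and Slpi. Without the control library of day 5 the log2 differences were 0.42 for Acod1, 1.12 for Saa3 and 0.22 for Slpi. Saa3 passed when either day 1 library was left out, with an edgeR adjusted p of 0.024 at the lowest. DESeq2, run as an alternative, called 67 genes in this class and none of the 3.

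The neutrophil-like class was made of different clusters in the groups. The largest was that led by Ngp on diabetic day 1 and by Il23a on control day 1, by Il1f9 and Igkc on day 3, by Il23a and Cxcr2 on day 5, and by Cxcr2 in both groups on day 7. Within clusters, Acod1 was higher in the diabetic library in 16 of 18 pairs of a cluster and a day, Saa3 in 15 of 18 and Slpi in 11 of 18. In the cluster led by Cxcr2, a receptor for neutrophil-attracting chemokines, Acod1 was at 7613, 3756, 3126 and 3539.8 CPM in the diabetic libraries and at 8581, 1945, 1838 and 2107 in the control libraries. There the ratio on days 3, 5 and 7 was 1.93, 1.70 and 1.68. In the cluster led by Il1f9, which had Acod1 among its leading genes, the ratio was 1.00, 1.17 and 1.37 on days 1, 3 and 5.

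In monocyte-like cells the diabetic library was above the control library on each of the 4 days for all 3 genes. The ratios of Slpi were 1.39, 2.38, 2.32 and 2.43, and its log2 difference of 1.08 ± 0.15 had the third smallest p of 9543 genes and an edgeR adjusted p of 0.056. Acod1 had ratios of 1.44, 4.69, 1.62 and 1.58 and a log2 difference of 1.05 ± 0.24 (edgeR adjusted p = 0.46). For Saa3 the ratios were 1.54, 6.16, 1.29 and 1.69, with a log2 difference of 1.20 ± 0.32 (edgeR adjusted p = 0.53). The exact 95% interval of the Saa3 ratio on day 5 was 0.92 to 1.83. Within clusters, Acod1 and Slpi were higher in the diabetic library in 6 of 6 pairs of a cluster and a day and Saa3 in 5 of 6, the exception being the cluster led by Ifit2 on day 1, at 185 CPM against 355. No gene passed in this class (0% called in either direction), while 700 had an unadjusted p under 0.05 and DESeq2 called 15. By DESeq2, Slpi and Acod1 passed, with adjusted p of 1.7e-06 and 0.020, and Saa3 did not (0.068). Slpi also passed with edgeR when any 1 of the libraries of days 1 and 3 was left out (edgeR adjusted p = 0.0088 at the lowest). Acod1 passed without the control library of day 3 (edgeR adjusted p = 0.032). With a library left out, the log2 difference ran from 0.66 to 1.23 for Acod1 and from 0.62 to 1.44 for Saa3. That of Slpi ran from 0.999 to 1.27. The cluster led by Vcan, a marker of inflammatory monocytes, held 76.7% to 90.4% of this class in each library. The control library of day 7 had 43 monocyte-like cells and the diabetic one 200, so that its values rest on few cells. All of the 8 neutrophil markers were also above 0 in this class, with a median log2 difference of 0.48 and none past the threshold, and their part in the values was not tested.

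Dendritic-like and T cell-like cells, in which the levels served as the gauge or, in CPM, lay below it, had log2 differences of 0.89 to 1.47. These moved with a library left out. In dendritic-like cells they ran from 0.62 to 1.52 for Acod1, 0.80 to 2.08 for Saa3 and 0.57 to 1.71 for Slpi. The T cell-like ranges were 0.45 to 1.37, 0.23 to 1.27 and 0.69 to 1.79. In dendritic-like cells the log2 differences were 1.05 ± 0.35 for Acod1, 1.47 ± 0.44 for Saa3 and 1.24 ± 0.48 for Slpi (edgeR adjusted p = 0.66, 0.58 and 0.73). In this class 1 of 9267 genes passed, the immunoglobulin gene Igha, which was lower in the diabetic libraries (0.0108% called lower and 0% higher). The T cell-like values were 0.97 ± 0.44, 0.89 ± 0.51 and 1.30 ± 0.49 (edgeR adjusted p = 1.00 for each), and none of 8160 genes passed, with 223 at an unadjusted p under 0.05 and none called by DESeq2. The log2 difference of Slpi was thus 0.74 in neutrophil-like, 1.08 in monocyte-like and 1.30 in T cell-like cells. With a library left out, the ranges were 0.22 to 1.17, 0.999 to 1.27 and 0.69 to 1.79. The T cell-like value was thus not the highest throughout. Whether the differences differed between classes was not tested.

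Genes around the 3 products were read from 6 lists chosen with earlier results of these data known. No listed gene passed the edgeR threshold in neutrophil-, monocyte- or dendritic-like cells, and the lists are described by their counts and medians. Of 18 genes of the TCA cycle, next to the reaction of Acod1, 1 was above 0 in neutrophil-like cells and the median log2 difference was -0.37, against 0.007 over all genes tested, of which 50.8% were above 0. Idh3a and Idh2, subunits of mitochondrial isocitrate dehydrogenases, were at -0.95 ± 0.34 and -0.85 ± 0.37 (edgeR adjusted p = 0.31 and 0.36). In monocyte-like cells 2 of the 18 were above 0, with a median of -0.13, and in dendritic-like cells 4 of 18, with a median of -0.10. Over all genes tested, 49.0% were above 0 in monocyte-like and 50.3% in dendritic-like cells. Of 10 genes of the Nrf2 response, which itaconate engages, 8 were above 0 in neutrophil-like, 5 in monocyte-like and 6 of 9 tested in dendritic-like cells. Their medians were 0.26, -0.016 and 0.16. Slc7a11, the cystine importer, was at 0.52 ± 0.17 in monocyte-like cells (edgeR adjusted p = 0.57).

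Genes induced by Toll-like receptors and NF-kappaB were mostly above 0, and none passed. In neutrophil-like cells 20 of 20 were above 0, with a median of 0.70, and in monocyte-like cells 18 of 20, with a median of 0.29 against -0.007 over all genes. In dendritic-like cells it was 18 of 19, with a median of 0.30. The 8 neutrophil markers were all above 0 in both monocyte- and dendritic-like cells, with medians of 0.48 and 0.47. In neutrophil-like cells the cytokine genes Il1a and Il6 were at 1.80 ± 0.62 and 1.33 ± 0.33, and Nos2, which encodes inducible nitric oxide synthase, was at 1.47 ± 0.54 (edgeR adjusted p = 0.29, 0.23 and 0.32). Of the acute-phase genes and receptors listed beside Saa3, 10 of 15 tested were above 0 in neutrophil-like cells, with a median of 0.045, and 8 of 14 in monocyte-like cells, with a median of 0.20. Lcn2, an iron-scavenging acute-phase protein, was at 1.42 ± 0.29 in neutrophil-like and 1.601 ± 0.39 in monocyte-like cells (edgeR adjusted p = 0.21 and 0.51). Fpr2, a receptor for serum amyloid A and formyl peptides, was at 1.00 ± 0.15 in monocyte-like cells (edgeR adjusted p = 0.056).

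Among antiproteases and their target proteases, listed beside Slpi, 12 of 15 tested were above 0 in neutrophil-like cells, with a median of 0.49, and 8 of 15 in monocyte-like cells, with a median of 0.12. In dendritic-like cells 7 of 12 of these and 8 of 14 acute-phase genes were above 0, with medians of 0.27 and 0.24. In monocyte- and dendritic-like cells the shares above 0 in both lists, 53.3% to 58.3%, lay near those over all genes tested, 49.0% and 50.3%. Members of the stefin A cluster, inhibitors of cysteine cathepsins, had the smallest p. Stfa3, Stfa1 and BC100530 were at 1.99 ± 0.29, 1.69 ± 0.25 and 1.68 ± 0.25 in neutrophil-like cells (edgeR adjusted p = 0.074 for each). Stfa2 was at 2.84 ± 0.37 in monocyte-like cells (edgeR adjusted p = 0.056). These genes are close copies of each other, and reads may have been divided among them. In macrophage-like cells 1 of 16 acute-phase genes (Lcn2) was at least 2-fold higher in the diabetic library on each day, and none of the genes of the other 5 lists. In the T cell-like gauge, 48.7% of all genes tested were above 0. Of the Toll-like receptor list, 13 of 17 genes were above 0 in the gauge, with a median of 0.22. There the TCA cycle list had 5 of 17 above 0, with a median of -0.11, the Nrf2 list 4 of 9 (-0.11), the acute-phase list 9 of 14 (0.098), the antiprotease list 5 of 9 (0.13) and the neutrophil markers 6 of 8 (0.31).

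The pattern over 40 points, 5 classes in 8 libraries, set Acod1 and Slpi apart from Saa3. On log2 values with 20 CPM added, Pearson's r between Acod1 and Slpi was 0.97, and with Saa3 it was 0.62 for Acod1 and 0.68 for Slpi. Among 3318 genes with a mean of at least 50 CPM, those most like Acod1 were Fpr1 (0.98), Fpr2 (0.98), Slpi (0.97), Sgms2 (0.95) and Gadd45a (0.95). Slpi was followed most closely by Acod1 (0.97), Slfn4 (0.96), Fpr2 (0.93), Fpr1 (0.93) and Clec4e (0.92). For Saa3 they were Ptpn23 (0.82), Mapk6 (0.82), Klf6 (0.81), Noct (0.80) and Ccl4 (0.77). The points share libraries and free RNA, and the correlations are a description. In single cells thinned to 1000 UMIs, monocyte-like cells with Acod1 also had Slpi more often than those without it in 7 of 7 libraries, with medians of 64.4% and 57.3%. For macrophage-like cells this was so in 8 of 8 libraries, with medians of 44.3% and 39.0%. In neutrophil-like cells it was so in 7 of 8 libraries, with medians of 86.5% and 73.6%, and not in the diabetic library of day 1, with 91.8% and 96%. It was also so in 5 of 7 libraries for dendritic-like cells, with medians of 43.3% and 34.8%, and in 5 of 7 for T cell-like cells, with medians of 38.1% and 35.5%. Pairs with Saa3 were mixed. Monocyte-like cells with Saa3 had Slpi more often in 4 of 4 libraries, and those with Slpi had Saa3 more often in 6 of 7. Macrophage-like cells with Acod1 had Saa3 more often in 6 of 8, whereas neutrophil-like cells with Saa3 had Slpi more often in 3 of 7 and T cell-like cells with Acod1 had Saa3 more often in 1 of 7.

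Over all cells of a library, Acod1 was at 4009 CPM on diabetic day 1 and 688 on day 7, and at 4429.8 and 432 on the same days in the control libraries, with 143 on control day 5. Slpi went from 4784 to 849 and from 5099 to 529, with 2858 and 164 on day 5. Saa3 went from 534 to 95.9 and from 369.97 to 93.5, and on day 3 it was at 452 and 71.0. These totals move with the share of neutrophil-like and monocyte-like cells, so that fewer cells of a type and less RNA per cell cannot be told apart in them.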

How the data were processed

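Per the labels and the study's methods, CD45+ cells of 8 libraries (1 per condition, 5 mice pooled) were captured and read in single cells. The methods name a microwell system and the series' design text a droplet system, which could not be settled here. The authors trimmed reads with fastp 0.20.1 (submitters' processing notes), called cells and counted UMIs with UMI-tools, and aligned with STAR to the mouse genome of Ensembl, while the submitters' notes name mm9. No coordinate was taken from the tables. The deposited values are raw UMI counts per gene and cell.

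Cells with more than 200 genes and less than 20% mitochondrial UMIs were kept (35158 of 38959 barcodes), and mitochondrial genes were removed. Log-normalized counts of 2000 variable genes, without the 3 genes reported, were regressed on depth alone. They were then reduced to 10 principal components and clustered by leidenalg 0.10.2 over 30 neighbours at resolution 0.8. Clusters were named "-like" from marker lists, and a cluster of 3354 cells with a median of 994 UMIs stayed unnamed. Doublets were scored but kept in the main values. Levels are CPM of a class (UMIs per cell were added after the data had been seen). Their exact 95% Poisson intervals, and those of the ratios, leave out the spread between mice and between cells. A count of 0 was set to the floor of 3 counts. Classes were compared within libraries by two-sided exact sign-flip tests, Benjamini-Hochberg adjusted over 30 tests, where both had at least 20 cells. The 12 tests with macrophage-like cells, whose values served to choose the genes, are given without a p. Diabetic and control libraries were compared on UMI counts summed per class with edgeR 4.0.16 (quasi-likelihood, TMM, filterByExpr, day block; R 4.3.3), adjusted over all genes tested, with DESeq2 1.42.0 as an alternative. The edgeR step was tested on simulated data. Libraries share only the number 1 as a replicate, and p-values measure the spread over days. Named genes were the 3 genes, the 5 most alike to each, and for each list at most 4 with the smallest adjusted p. The members and lists were chosen with earlier results of these data known. The T cell-like edgeR test was added after the data had been seen. Of 21742 genes, 98.2% matched a GENCODE M21 symbol. Python 3.11.15 was used.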

Additional observations from a re-analysis of the deposited data

How the results depend on the processing

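No paired analysis was possible by replicate number, because each is 1; the edgeR fits match libraries by day instead, through the day block. The mean diabetic over control log2 ratios in macrophage-like cells moved by less than 1 SD over days, with no change of sign, under each alternative but 1, the day 5 libraries left out included (chosen after seeing the data, as was the scale of UMIs per cell). The exception was Slpi in UMIs per cell with the T cell-like value subtracted, at -0.35, with diabetic day 1 at the floor. Single days moved more, for Saa3 with the clustering as given above. With the T cell-like CPM subtracted, the log2 ratio of Acod1 on day 5 went from 1.87 to -0.0048, that of Slpi on day 1 from 0.20 to 2.37 (against the floor) and that of Slpi on day 7 from 0.52 to -0.25. Between classes, 26 of 30 tests passed; with the T cell-like level subtracted only 18 could be made, and 15 passed. The 30 include 12 pairs with macrophage-like cells, whose values served to choose the genes and which support no call. Named singly, macrophage- over T cell-like cells turned to -0.49 for Acod1 and -0.082 for Slpi. The 3 Saa3 pairs among neutrophil-, monocyte- and macrophage-like cells changed sign. Neutrophil- over monocyte-like cells went to -0.0059 at resolution 0.4, -0.049 at resolution 1.6, and between -0.33 and 0.33 with libraries left out. Neutrophil- over macrophage-like cells went to -0.11 at resolution 1.6, and between -0.072 and 0.40 with libraries left out. Monocyte- over macrophage-like cells went to -0.060 at resolution 1.6, -0.089 with the 3 genes among the variable genes, -0.056 with T cell-like levels subtracted, and between -0.23 and 0.28 with libraries left out. In UMIs per cell, dendritic- over T cell-like cells turned to 0.31 for Acod1 and 0.35 for Slpi, and for Saa3 neutrophil- over monocyte-like cells went to -1.23 and neutrophil- over macrophage-like cells to -1.13. The cause was not tested. Of 468 values of class pairs under alternatives, 412 kept sign and call, 31 lost the call, 4 gained it and 21 changed sign.

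The number of genes apart was 0 in neutrophil-like cells, but 67 by DESeq2, 285 without a filter, 3 with cells named singly and 0 to 82 with a library left out. In monocyte-like cells it was 0, but 15 by DESeq2, 107 without a filter and 0 to 31 with a library left out. In dendritic-like cells it was 1, but 11 by DESeq2, 123 without a filter, 0 without the day block, 0 with cells named singly and 1 to 4 with a library left out. In T cell-like cells it was 0, but 28 without a filter. No gene of the 3 changed sign in 13 alternatives per class. Slpi in monocyte-like cells passed in 6 of 13, with adjusted p from 4.5e-12 to 0.96, and Acod1 in 3 of 13. Saa3 in neutrophil-like cells passed in 3 of 13. Without a filter all 3 genes also passed in dendritic-like cells (edgeR adjusted p from 7.8e-15 to 4.7e-08), Saa3 in monocyte-like cells (1.5e-09), and Acod1 and Slpi in the T cell-like gauge (0.014 and 9.1e-06).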

Other observations

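Acod1 was also high in some cells of a cluster named from mast cell markers. In the mast cell-like cluster (148 cells, led by Cpa3, Mcpt4 and Tpsb2) it stood at 2778 CPM in the diabetic library of day 1 and at 3207 and 2485 in the control libraries of days 1 and 3, which was 4.53, 5.07 and 17.3 times the T cell-like level. In the diabetic library of day 3 it was at 231, or 0.60 times that level. The UMIs sat in few cells, a split made after the values had been seen. The 31 cells with 10 or more Acod1 UMIs held 981 of them, with a median of 28 and up to 109 in a cell, and the other 117 cells held 185. In the 31 cells the median was 1 UMI for Cpa3, the mast cell carboxypeptidase, and 0 for Tpsb2, a tryptase, against 97 and 79 in the 117 cells. Mcpt8, a basophil protease, had a UMI in 18 of the 31 cells and in 13 of the 117. The medians of Slpi (2 and 2), Saa3 (0 and 0) and S100a8 (3 and 3) were the same in both sets. Over the whole cluster, Slpi was at 0.76 and 1.10 times the T cell-like level on diabetic days 1 and 3. On the same control days it was at 0.65 and 5.92 times that level. Of the 31 cells, 11 were diabetic and 20 were control. No list of basophil markers was prepared, and these cells were not named.

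Fibroblast-like cells, 50 in all, had Saa3 at 398 CPM in the control library of day 7, the only library with at least 20 of them, which was 10.5 times the T cell-like level (exact 95% interval 8.08 to 13.7). Acod1 and Slpi in them were at 0.70 and 1.02 times that level.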
